A study of Mus musculus with 6 samples.

Results

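The dual-specificity MAP kinase phosphatases examined here are 9 genes, Dusp1, Dusp4, Dusp5, Dusp6, Dusp7, Dusp8, Dusp10, Dusp14 and Dusp16, taken by symbol from the 18943 genes of the deposited table. All 9 had a row and all 9 passed the filter on low values. They were followed in 6 RNA-seq libraries of muscle stem cells (MuSCs), sorted by FACS from 8-week-old wild-type C57BL/6 mice and kept in culture for 5 days. The cells received the solvent DMSO, Endothelin-3 (ET-3) or Neurotensin (NT), with 2 libraries per group, and both ligands are peptides that act through G protein-coupled receptors. The labels give a dose of 100 nM for both ligands, whereas the culture methods of the study give higher doses, so the dose is uncertain. The comparison asks which transcripts changed when the cultured cells were exposed to either ligand.

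MAP kinases are switched on by phosphorylation of a threonine and a tyrosine in their activation loop, and dual-specificity phosphatases remove both phosphates. Many of these phosphatases are themselves transcribed in response to the kinases they silence and so act as feedback brakes. By common classification, Dusp1, Dusp4 and Dusp5 encode inducible nuclear enzymes, of which Dusp5 is selective for ERK, Dusp6 and Dusp7 encode cytoplasmic ERK phosphatases, and Dusp8, Dusp10 and Dusp16 encode enzymes that prefer JNK and p38. Dusp14 encodes a small atypical enzyme without the kinase-binding domain. In muscle, ERK is known for driving myoblast proliferation and p38 for driving MuSC activation and differentiation.

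The members share the catalytic loop of the enzyme, in which a cysteine attacks the phosphate and an arginine holds it. This loop is shown because the rule did not use it and all members have it. Each line gives 30 bases of the longest annotated coding sequence (GENCODE M21 transcripts, GRCm38), 5′ to 3′, and the capitals mark the cysteine codon and the arginine codon.
Dusp1: gttcatTGCcaggccggcatctccCGGtca
Dusp4: gttcacTGCcaggccggcatctccCGAtca
Dusp5: gtccacTGCgaagctggggtttccCGGtcg
Dusp6: gtgcatTGCttggcaggtatcagcCGCtct
Dusp7: gtgcacTGCctagcaggcatcagcCGTtca
Dusp8: gttcacTGTctggctggcatctctCGCtct
Dusp10: atccacTGCcaggccggcgtgtccCGAtcc
Dusp16: atccacTGCttagctgggatctctCGCtcc
Dusp14: gtgcacTGTgcggcaggcgtgagcCGCtcg
The loop was found once in every member. The cysteine codon is TGC in 7 members and TGT in 2, Dusp8 and Dusp14. Dusp4 matched Dusp1 at 28 of the 30 bases, and Dusp14 matched Dusp1 at 18. The coding sequences run from 198 codons in Dusp14 to 663 in Dusp8, and the loop lies at cysteine codon 111 in Dusp14 and 258 in Dusp1. Whether reads of this loop were shared between members was not tested.

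After 5 days, the make-up of this family differed between DMSO and ligand-treated MuSCs. Dusp4 and Dusp5 were higher and Dusp1, Dusp8 and Dusp14 lower by at least 2-fold under both ligands. Dusp6 rose and Dusp10 and Dusp16 fell by less than 2-fold. Dusp7 was the remaining member and had the smallest change under either ligand. Values below are the deposited scaled read numbers, and differences were tested with limma on log2(value + 1) over 13921 genes with Benjamini-Hochberg adjustment. A gene is said to have risen or fallen at an adjusted p of at most 0.05, and to be called when it also changed at least 2-fold.

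Under ET-3, 2 members were called higher and 3 lower, where 6.62% and 14.9% of all tested genes were called. At the adjusted p alone, 3 members rose and 5 fell, beside 30.6% and 33.2% of all tested genes. Under NT, 2 members were called higher and 3 lower, beside 7.30% and 13.2% of all genes, and 4 rose and 5 fell, beside 29.7% and 32.5%. The groups did not overlap in 8 members for ET-3 and in 9 for NT, but this also holds for 79.6% and 80.6% of all tested genes, so the separation is common in these data. The median log2 fold change of the members was -0.45 under ET-3 and -0.38 under NT, beside -0.01 over all tested genes in both comparisons. Both comparisons use the same DMSO libraries and are therefore not independent of each other.

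The values rest on libraries of 4214458 to 4600575 scaled reads on 17057 to 17678 genes. Within a treated pair, values scattered about as much as random sampling of reads would give, and chi-square averaged 0.900 per gene for ET-3 and 0.965 for NT, against 1.45 for DMSO. A figure legend of the study calls the replicates of its RNA-seq data biological samples, but whether each treated pair came from separate cultures is not given. The p-values may therefore measure technical spread only. When each treated pair was merged into its mean, as 1 sample, the residual spread came from the 2 DMSO libraries alone, and each merged sample was assumed to vary like them. Under that assumption the 5 called members passed, with adjusted p between 0.0225 and 0.0455 for ET-3 and between 0.0246 and 0.0463 for NT (limma).

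**Figure D1:**
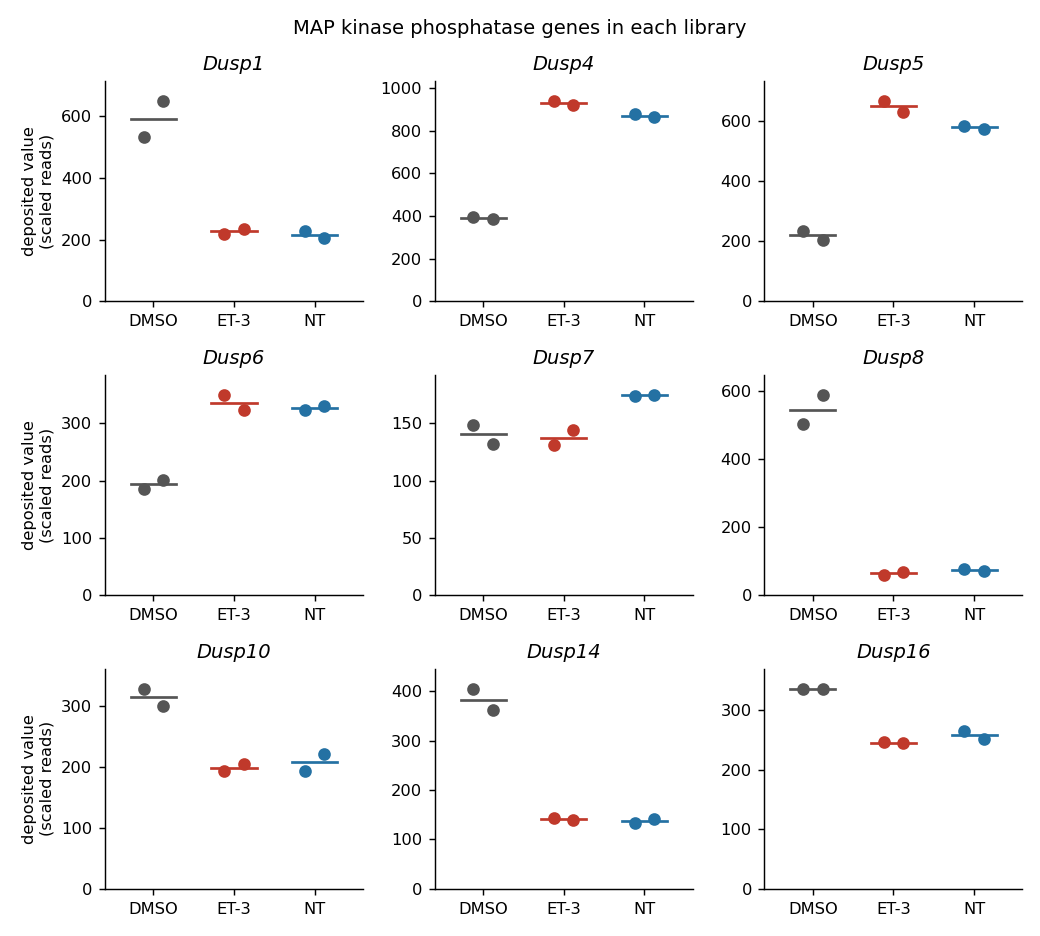
Deposited values (scaled reads, linear axes from 0) of the 9 genes in each library. Points are the 2 libraries of a group and lines their mean. The treated points lie above both DMSO points for Dusp4, Dusp5 and Dusp6 and below them for Dusp1, Dusp8, Dusp10, Dusp14 and Dusp16.

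Among the nuclear enzymes, Dusp4 (ENSMUSG00000031530, chromosome 8 of GRCm38, 34807297 to 34819894) encodes a phosphatase of ERK and JNK that ERK activity induces. Its values were 397 and 386 in DMSO, 940 and 922 in ET-3, and 880 and 864 in NT. Every treated library held over 2-fold the DMSO values, and the libraries of a group lay close together. Dusp4 rose, with a log2 fold change of 1.25 for ET-3 (standard error 0.05, adjusted p = 1.19e-08) and 1.15 for NT (standard error 0.05, adjusted p = 2.24e-08, limma).

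Dusp5 (ENSMUSG00000034765, chromosome 19, 53529109 to 53542431) encodes the nuclear phosphatase that anchors and inactivates ERK. It was at 234 and 206 in DMSO, 668 and 633 in ET-3, and 585 and 576 in NT. This was the largest upward change of the family, 2.96-fold in the means under ET-3 and 2.64-fold under NT. The log2 fold changes were 1.56 and 1.40 (standard error 0.07 for each, adjusted p = 3.70e-08 and 8.51e-08, limma), and the changes exceeded those of 96.9% and 95.9% of all tested genes. An antisense gene overlaps 22.1% of the exonic length of Dusp5. The sources used here disagree on whether the libraries kept the strand, so how reads from this stretch were counted is uncertain. The methods of the study left out reads over several genes. Without the strand, reads from this stretch may therefore be missing from the Dusp5 values, also from those per kb.

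Dusp1 (ENSMUSG00000024190, chromosome 17, 26505590 to 26562128) is an immediate early gene whose product acts on p38, JNK and ERK, and it moved in the opposite direction. Its values were 531 and 649 in DMSO, 219 and 234 in ET-3, and 227 and 205 in NT. The DMSO libraries differed by more than the treated ones, and all 4 treated libraries lay below both. Its log2 fold change was -1.37 for ET-3 and -1.44 for NT (standard error 0.10 for each, adjusted p = 1.02e-06 and 7.80e-07, limma).

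Of the cytoplasmic ERK phosphatases, Dusp6 (ENSMUSG00000019960, chromosome 10, 99263231 to 99267489) is a standard readout of ERK activity. It had values of 186 and 201 in DMSO, 350 and 323 in ET-3, and 323 and 331 in NT. The groups did not overlap, yet the change stayed under 2-fold, with ratios of 1.74 and 1.69 in the means. This corresponds to 0.80 on the log2 scale for ET-3 (95% interval 0.63 to 0.96, adjusted p = 6.08e-06) and 0.75 under NT (0.59 to 0.92, adjusted p = 9.33e-06, limma).

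Dusp7 (ENSMUSG00000053716, chromosome 9, 106368632 to 106375724) encodes a close relative of Dusp6. It was at 149 and 132 in DMSO, 131 and 144 in ET-3, and 174 and 175 in NT. The ET-3 and DMSO libraries overlapped, and the difference of -0.03 had a 95% interval of -0.26 to 0.20 (adjusted p = 0.812, limma). Under NT it rose by 0.31 (0.09 to 0.54, adjusted p = 0.0213, limma), a call that was lost without either NT library (adjusted p = 0.0952 and 0.102), without the second DMSO library (adjusted p = 0.111), and with each treated pair averaged (adjusted p = 0.176).

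The members that prefer JNK and p38 all fell. Dusp8 (ENSMUSG00000037887, chromosome 7, 142079490 to 142095843) is known for its expression in brain, heart and skeletal muscle. It had values of 503 and 590 in DMSO, 60 and 68 in ET-3, and 78 and 70 in NT. The DMSO mean was 8.54-fold that of ET-3 and 7.39-fold that of NT, the largest change of any member. Its log2 fold change was -3.07 for ET-3 and -2.87 for NT (standard error 0.12 for each, adjusted p = 1.82e-08 and 3.15e-08, limma), and 4.5% of all tested genes had as low or lower a value in either comparison.

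Dusp10 (ENSMUSG00000039384, chromosome 1, 184013302 to 184075636), a phosphatase of JNK and p38, was at 329 and 301 in DMSO, 193 and 205 in ET-3, and 194 and 222 in NT. Dusp16 (ENSMUSG00000030203, chromosome 6, 134715468 to 134792625), a JNK phosphatase, was at 336 in both DMSO libraries, 247 and 244 in ET-3, and 265 and 252 in NT. Both were lower in every treated library than in either DMSO library, by less than 2-fold. The log2 fold changes of Dusp10 were -0.66 and -0.60 (adjusted p = 9.48e-05 and 0.000196, limma) and those of Dusp16 -0.45 and -0.38 (adjusted p = 0.000145 and 0.000516, limma). When each treated pair was merged into its mean, as 1 sample, Dusp10 under NT no longer passed (adjusted p = 0.0570).

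Dusp14 (ENSMUSG00000018648, chromosome 11, 84048041 to 84069261), the atypical member, was at 405 and 361 in DMSO, 143 and 139 in ET-3, and 133 and 141 in NT. All treated libraries lay within a narrow range well below DMSO. The log2 fold changes were -1.43 for ET-3 and -1.47 for NT (standard error 0.09 for each, adjusted p = 3.58e-07 and 3.13e-07, limma).

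**Figure D2:**
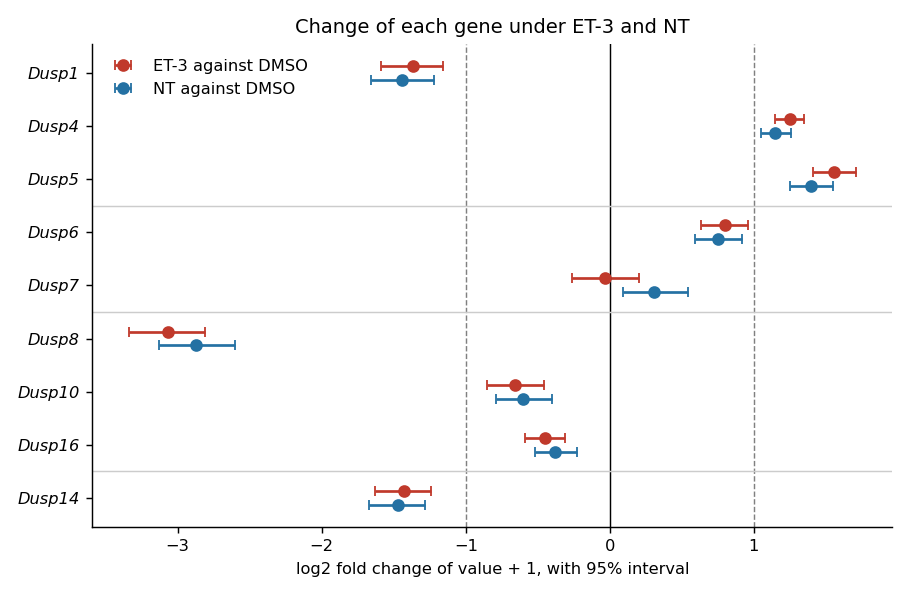
Log2 fold change of value + 1 against DMSO for each gene, with the 95% interval from limma; dashed lines mark 2-fold and grey lines separate nuclear, cytoplasmic, JNK- and p38-preferring, and atypical enzymes. Dusp4 and Dusp5 lie above 1 and Dusp1, Dusp8 and Dusp14 below -1 under both ligands, and the interval of Dusp7 under ET-3 includes 0.

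The order of the transcripts was set per kb of exonic length, so that genes of different length can be compared. In DMSO, Dusp14 (mean 197 per kb) and Dusp1 (178 per kb) stood highest, followed by Dusp4 (143), Dusp8 (112), Dusp10 (104), Dusp5 (89.0), Dusp6 (61.8), Dusp16 (43.1) and Dusp7 (41.9). The library ranges of Dusp14 and Dusp1, of Dusp8 and Dusp10, and of Dusp16 and Dusp7 overlapped, so the order within these pairs is not resolved. In ET-3 the order began with Dusp4 (340 per kb), Dusp5 (263) and Dusp6 (107), and Dusp8 was last (13.1). In NT the same 3 genes led at 318, 235 and 104 per kb, and Dusp8 was again last at 15.2. Among the middle ranks, Dusp1 and Dusp10 overlapped in ET-3, and in NT the ranges of Dusp14, Dusp10 and Dusp1 all overlapped.

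The summed level of the 9 transcripts per kb was 966 and 972 in the DMSO libraries, 1010 and 993 in ET-3, and 963 and 960 in NT. The ET-3 libraries lay slightly above and the NT libraries slightly below both DMSO libraries, within a range of 960 to 1010 per kb. Without division by length, the values summed to 3070 and 3162 in DMSO, 2951 and 2912 in ET-3, and 2859 and 2836 in NT. On that scale every treated library lay below both DMSO libraries, so the direction for ET-3 depends on the weighting by length. Neither sum was tested. The nuclear enzymes together were at 400 and 420 per kb in DMSO and between 610 and 679 with either ligand. Within this sum, Dusp4 and Dusp5 rose while Dusp1 fell. Dusp8, Dusp10 and Dusp16 together were at 255 and 263 per kb in DMSO and between 107 and 120 with either ligand. Dusp4 held 15.0% and 14.5% of the summed level per kb in DMSO and between 32.8% and 33.9% in the treated libraries. For Dusp5 these shares were 9.79% and 8.57% in DMSO and 24.3% to 26.7% with either ligand. Dusp14 held 21.5% and 19.1% in DMSO and 7.10% to 7.55% with either ligand.

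**Figure D3:**
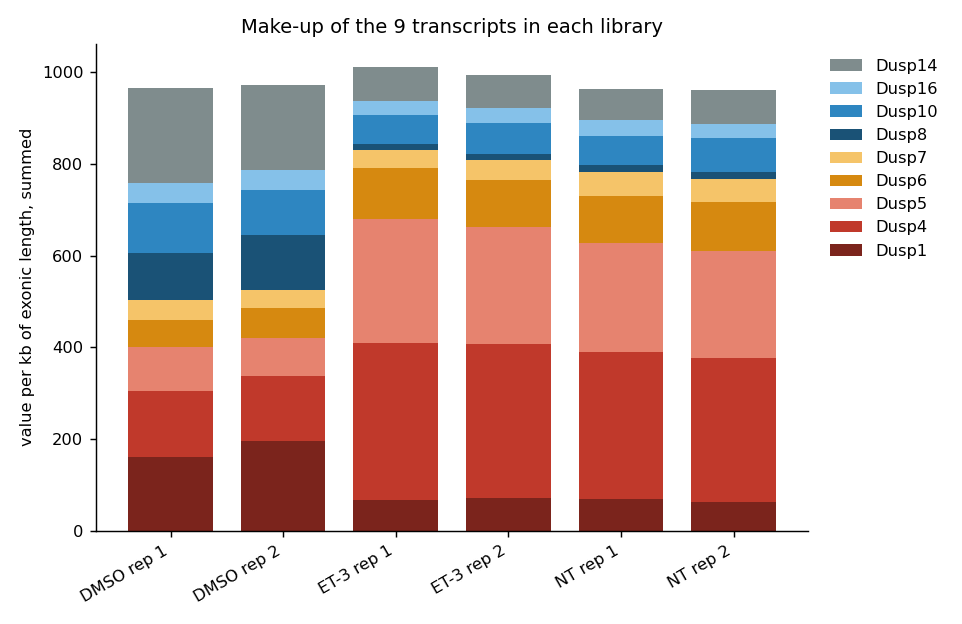
Value per kb of exonic length of the 9 genes, stacked, in each library (axis from 0). The bars reach 960 to 1010 per kb in all 6 libraries, while Dusp4 and Dusp5 take more of the bar and Dusp1, Dusp8 and Dusp14 less in ET-3 or NT than in DMSO.

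The ligands were also compared with each other. Of the 9 members, 0 differed between NT and ET-3 at an adjusted p of 0.05 in limma's test, and 2 did at an unadjusted p under 0.05, while 2.69% of all tested genes passed the adjusted p. The NT and ET-3 libraries did not overlap in 5 members, beside 49.6% of all genes. The largest difference was that of Dusp7, 0.34 higher under NT (95% interval 0.12 to 0.57, adjusted p = 0.105, limma). For Dusp5 it was -0.16 (-0.31 to -0.01, adjusted p = 0.216), and for Dusp8 0.21 (-0.06 to 0.47, adjusted p = 0.377, limma). These intervals leave room for differences of up to 0.57 on the log2 scale and do not show that the ligands act alike.

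The states of the cultures moved together with these changes. Transcripts of 7 genes of differentiating muscle cells, such as Myog and Myh3, summed to between 13087 and 14469 in DMSO, 220 and 284 in ET-3, and 207 and 292 in NT. Markers of MuSCs and myoblasts summed to between 9545 and 10465 in DMSO, 9224 and 9506 in ET-3, and 7945 and 8293 in NT, and the genes of this list did not move together. Pax7 was at 857 and 1070 in DMSO and at 1599 to 1754 with either ligand, whereas Cdh15 was at 1547 and 1746 against 436 to 496, and Des at 1950 and 2280 against 1257 to 1688. In bulk RNA, fewer cells of a type and less RNA per cell cannot be told apart. The part of these differences in the phosphatase values was not tested.

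Markers of other cell types were summed in the same way. Those of endothelial cells (4 of 5 genes listed in the table) summed to 12 to 24 in DMSO, 96 to 104 in ET-3 and 85 to 107 in NT, with Tek at 2 and 1 in DMSO and between 42 and 70 with either ligand, and Cdh5 at 0 to 5 throughout. Those of fibroadipogenic cells (4 of 5) summed to 136 to 147, 64 to 76 and 82 to 90, and Col15a1 accounts for most of the difference, at 80 and 82 in DMSO and 0 to 1 with either ligand. Dcn was at 9 and 17 against 0 to 2, Pdgfra at 20 and 30 against 26 to 44, and Ly6a at 27 and 18 against 37 to 52. Those of macrophages (2 of 5) summed to 21 to 27, 21 to 45 and 27 to 28, and those of Schwann cells (2 of 4) to 38 to 44, 17 to 18 and 28 to 38. The list of smooth muscle cells and pericytes (5 of 5) summed to 959 to 1042 in DMSO, 443 to 514 in ET-3 and 516 to 525 in NT, of which Cspg4 held 610 and 612 in DMSO and 433 to 509 with either ligand. Pdgfrb was at 227 and 278 in DMSO against 3 to 13, and the pericyte marker Rgs5 at 117 and 150 against 2 to 5, while Myh11 and Kcnj8 were at 4 or below in every library. Their part in the phosphatase values was not tested.

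Promoter sequences were read for the 8 members with a RefSeq window of 250 bases before to 50 bases after the start (GRCm38.p6). Dusp4, which was also called higher, had no window. The windows of Dusp5, the member with the largest rise, and of Dusp1 and Dusp8, which fell, are shown because they hold the motifs that were rare among all windows. Sequences are given 5′ to 3′ along the gene, and capitals mark a serum response element in Dusp5 and the cyclic AMP response element (CRE, TGACGTCA) in Dusp1 and Dusp8.
Dusp5 (chr19:53528895-53529194, plus strand): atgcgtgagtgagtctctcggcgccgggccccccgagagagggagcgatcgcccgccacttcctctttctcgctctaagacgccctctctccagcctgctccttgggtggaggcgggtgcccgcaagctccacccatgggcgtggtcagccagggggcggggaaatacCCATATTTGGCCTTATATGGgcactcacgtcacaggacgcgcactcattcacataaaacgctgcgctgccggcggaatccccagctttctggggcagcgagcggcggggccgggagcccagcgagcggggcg
Dusp1 (chr17:26508423-26508722, minus strand): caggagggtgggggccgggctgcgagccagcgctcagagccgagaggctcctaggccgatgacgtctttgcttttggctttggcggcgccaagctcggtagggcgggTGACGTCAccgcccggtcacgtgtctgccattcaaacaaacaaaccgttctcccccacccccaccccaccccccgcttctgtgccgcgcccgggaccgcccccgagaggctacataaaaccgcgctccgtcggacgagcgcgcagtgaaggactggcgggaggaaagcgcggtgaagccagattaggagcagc
Dusp8 (chr7:142095235-142095534, minus strand): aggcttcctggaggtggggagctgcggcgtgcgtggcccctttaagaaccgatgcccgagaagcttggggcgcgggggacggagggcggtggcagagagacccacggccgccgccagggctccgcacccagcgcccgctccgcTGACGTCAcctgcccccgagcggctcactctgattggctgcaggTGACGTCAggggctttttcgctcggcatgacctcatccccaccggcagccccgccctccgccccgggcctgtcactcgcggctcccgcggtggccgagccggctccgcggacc
Dusp5 held 2 adjoining serum response elements, and 1.63% of the 32851 windows hold any. Dusp8 held 2 CREs and Dusp1 held 1, beside 1.79% of all windows. For Dusp8 and Dusp14, the bases checked just after the RefSeq start were absent from the GENCODE transcript used above. Their start is therefore uncertain. The other motifs, searched on both strands, were the E-box CANNTG in 6 of the 8 windows (72.3% of all), the GC box GGGCGG in 7 (35.7% of all), the ETS core CGGAAG in 2 (16.9% of all) and AP-1 TGANTCA in 0 (7.81% of all). An E-box overlaps each CRE in Dusp8, and both were counted. The bases G and C made up 57.3% to 78.7% of the members' windows, beside a median of 52.7% over all windows. The part of this base content in the matches was not tested. A match describes letters in this window and not a bound site.

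The genes whose profile over the 6 libraries lay nearest to a called member were sought among 10208 genes whose mean reached 50, by the Euclidean distance between centred log2(value + 1). For Dusp4 these were the transporter gene Abcc1 (distance 0.0681) and Cdc25a (0.0717), which encodes a phosphatase that activates cyclin-dependent kinases. Cdc25a was at 284 and 265 in DMSO and at 619 to 676 with either ligand. For Dusp5 they were Sfxn1 (0.122) and 6430548M08Rik (0.125), for Dusp1 Sec14l2 (0.120) and the sodium-calcium exchanger gene Slc8a3 (0.130), and for Dusp14 Ptprf and St3gal3 (0.158 each). For Dusp8 they were Tgfb3 (0.191), which encodes a TGF-beta ligand, and Reep1 (0.251). Tgfb3 was at 974 and 1051 in DMSO, 120 and 117 in ET-3, and 150 and 138 in NT.

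The remaining dual-specificity phosphatases and related STYX genes were counted from a list of 20 symbols, of which 15 were in the table and 13 tested. Dusp27 and Styxl2 name the same gene, as do Dusp29 and Dupd1, and of these symbols only Dusp27 was in the table. Over all tested genes, 30.6% rose and 33.2% fell under ET-3, and 29.7% and 32.5% under NT. These shares stand beside the counts of this list and of those below. In this list, 1 rose and 7 fell under ET-3 (median log2 fold change -0.35), and 1 rose and 6 fell under NT (median -0.19). The gene that rose was Dusp9, a cytoplasmic ERK phosphatase of the same subgroup as Dusp6 and Dusp7, at 70 and 79 in DMSO, 543 and 498 in ET-3, and 482 and 487 in NT. The rise was 2.79 for ET-3 and 2.69 for NT on the log2 scale (standard error 0.08 for each, adjusted p = 2.97e-09 and 4.11e-09, limma), larger than that of any of the 9 members that rose. Dusp27, a muscle gene with a predicted inactive phosphatase domain, fell from 1248 and 1336 to between 222 and 252. Dusp22, an atypical enzyme acting on the JNK pathway, was at 117 and 103 in DMSO, 29 and 21 in ET-3, and 46 and 49 in NT. Dusp2, the fourth inducible nuclear enzyme, did not pass under ET-3, with values of 239 and 238 against 220 and 264 (log2 fold change 0.01, 95% interval -0.19 to 0.22), and is named here after its values were seen.

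The kinases that these phosphatases act on were counted next. Of 13 MAP kinase genes, 11 were tested, of which 6 rose and 1 fell under ET-3, and 5 rose and 1 fell under NT (medians 0.27 and 0.24). Mapk13, which encodes p38 delta, rose from 4 and 7 to 294 and 272 in ET-3 and 245 and 275 in NT. Mapk3, which encodes ERK1, rose by 0.58 and 0.46 on the log2 scale, and Mapk8, which encodes JNK1, fell (log2 fold changes -0.35 and -0.29.) Mapk13 was the only MAP kinase gene called at 2-fold, under both ligands.

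Of 7 MAP kinase kinases, 2 rose and 1 fell under each ligand (medians 0.15 and 0.08). Map2k3, an activator of p38, rose by 0.78 and 0.56, and Map2k1, an activator of ERK, fell (log2 fold changes -0.41 and -0.45.) Map2k7, an activator of JNK, rose by 0.20 under ET-3, and its NT value was 0.08 (adjusted p = 0.263, limma). Of 18 RAF and other MAP3K genes, 17 were tested, of which 6 rose and 7 fell under ET-3 and 8 rose and 6 fell under NT (medians 0.10 and 0.23). Map3k6 and Map3k3 rose by 1.07 and 0.53 under ET-3, and Map3k9, an activator of JNK signaling, fell by 2.51. Map3k13 fell by 0.99 under ET-3 (adjusted p = 0.0484, limma) at values of 24 and 18 against 14 and 7, and it passed in 3 of 15 alternatives, of which 1 left out a library, ET-3 replicate 1 (adjusted p = 0.0276). The MAP kinase phosphatases outside the DUSP family had 5 of 8 genes tested, of which 1 rose and 1 fell under ET-3 and 0 rose and 1 fell under NT (medians 0.04 and -0.07). Ppm1b fell (log2 fold changes -0.69 and -0.75), and Ppp2cb rose by 0.28 under ET-3. Of 11 kinases activated by MAP kinases, 2 rose and 5 fell under ET-3 and 2 rose and 4 fell under NT (medians -0.16 and -0.12). Rps6ka6 and Rps6ka4 rose by 0.96 and 0.90 under ET-3, and Mapkapk3, a target of p38, and Mknk2 fell (log2 fold changes -1.75 and -1.05.) With each treated pair averaged, Map2k1 and Map3k6 under both ligands, Mapk3 and Mapk8 under NT, and Map2k7 and Ppp2cb under ET-3 no longer passed. Map2k7 under ET-3 was also lost without ET-3 replicate 2 (adjusted p = 0.0759), and Ppp2cb under NT passed without DMSO replicate 1 (adjusted p = 0.0279, limma).

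Genes known as transcriptional outputs of ERK, the class to which Dusp4, Dusp5 and Dusp6 belong, mostly rose. Of 19 such genes outside the DUSP family, 18 were tested. Under ET-3, 14 rose and 3 fell (median 0.63), beside 30.6% and 33.2% of all tested genes. Under NT, 13 rose and 4 fell (median 0.47), beside 29.7% and 32.5%. Etv4, an ETS factor, had values of 190 and 187 in DMSO, 531 and 506 in ET-3, and 534 and 533 in NT. Ccnd1, which encodes cyclin D1, was at 964 and 926, 2409 and 2197, and 1930 and 1854. Spry1, an inhibitor of receptor tyrosine kinase signaling, and Etv1 fell, with log2 fold changes of -1.23 and -1.51 for ET-3 and -1.12 and -1.49 for NT. The activity of ERK was not measured in these libraries, and the cause of these changes was not tested.

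Immediate early genes, the class to which Dusp1 belongs, were mixed. Of 20 such genes, 4 rose and 10 fell under ET-3 and 3 rose and 11 fell under NT (medians -0.22 and -0.31). Atf3, a stress-induced transcription factor gene, was at 338 and 230 in DMSO, 27 and 20 in ET-3, and 23 and 25 in NT. Egr2 fell by 2.47 under ET-3, from 60 and 74 to 14 and 9. Fosb rose from 19 and 25 to 99 and 94 in ET-3 and 86 and 97 in NT, and Fosl1, which is also on the ERK list, rose by 1.16 and 0.98 on the log2 scale. Egr1, Fosl1 and Ier3 are on both lists.

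**Figure D4:**
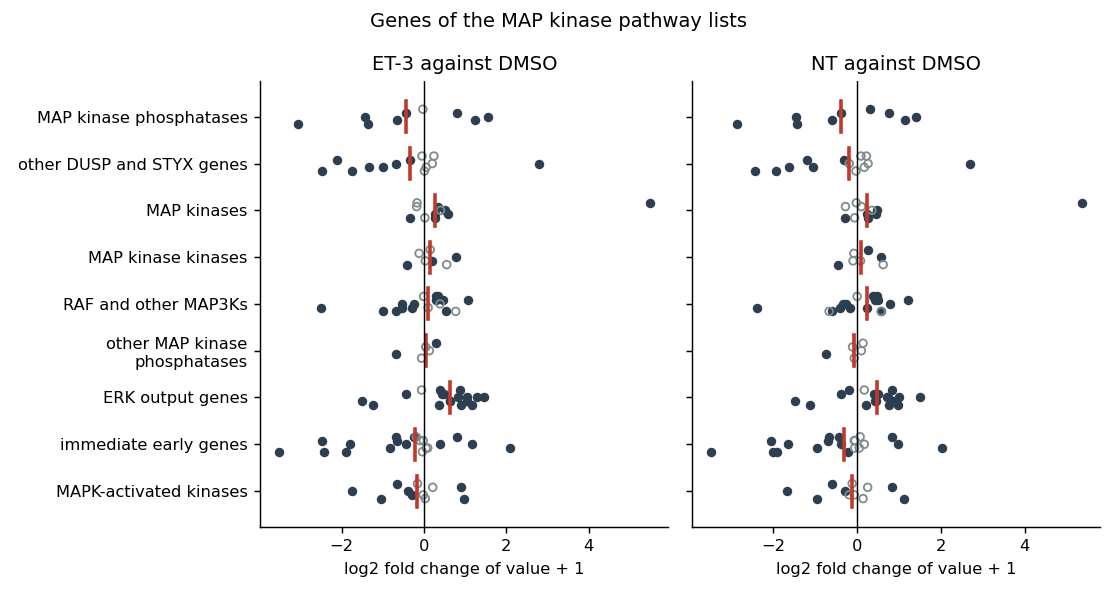
Log2 fold change of value + 1 of each tested gene in the MAP kinase lists, under ET-3 (left) and NT (right). Filled points passed an adjusted p of 0.05 in limma, open points did not, and red lines mark the median, which is -0.45 and -0.38 for the 9 phosphatases and 0.63 and 0.47 for the ERK output genes.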

How the data were processed

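The deposited table also holds gene annotation, which was not tested. RNA-seq covered 6 libraries in 3 groups. The methods of the study state that single-end reads were trimmed, aligned to mm10 (GRCm38) with STAR and counted on exons with featureCounts, without multi-mapping reads or reads over several genes. The submitters' processing notes name Trimmomatic 0.38, STAR 2.7.7a, featureCounts 1.6.5 and DESeq2 1.30.0, and other versions and another trimmer stand in the methods. The labels name a SMART-Seq HT library kit and the methods a stranded mRNA kit. The design text speaks of triplicates, and 2 libraries per group were analysed here. The deposited values are a read signal: judged from the values, since the scaling is not stated, the authors multiplied counts by a factor per library and rounded them. Rounded multiples skip some whole numbers: up to 192, there are 24 such numbers for DMSO replicate 2, 31 for ET-3 replicate 1 and 16 for ET-3 replicate 2, and 0 genes had one. The fitted factors ranged from 0.781 to 1.19, which puts the relative error of a value of 100 at 8.84% to 10.9%, from counting alone.

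Values were used as deposited, with pseudocount 1, and genes had to reach a mean of 5, the study's minimum, which removed 5022. Fold changes on this scale understate those of low genes. limma 3.58.1 in R 4.3.3 (lmFit, contrasts, eBayes with a mean-variance trend) fitted all 6 libraries at once over 13921 genes, in place of a count model, since the values are scaled. The pipeline was tested on simulated data, in which every library had the same spread around means taken from DMSO. That simulation changed far fewer genes than passed here and did not copy the differing scatter of the groups. Calls used the study's thresholds, an adjusted p of at most 0.05 and at least 2-fold. Samples were grouped by their labels.

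Exonic lengths and positions came from GENCODE M21 on GRCm38, matched by Ensembl identifier for 18920 of 18943 genes. Promoter windows came from RefSeq. The members, the gene lists, the motifs and the tests were chosen with earlier results of these data known. Named were all members, the up to 2 genes per list with the largest passing change in each direction under ET-3, and the 2 nearest profiles per called member, with any other gene said to be added after its values were seen. Genes of the muscle and cell type marker lists were given by sums, with single markers picked after their values were seen. Alternatives covered pseudocounts, filters, scaling, voom weights, the spread of 2 groups alone, a replicate block, averaged treated pairs, the fold threshold and each library left out. Plots were made with Python 3.11.15 and matplotlib 3.10.9.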

Additional observations from a re-analysis of the deposited data

Results flagged for a closer look

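Of the 9 phosphatase genes, 0 differed between NT and ET-3 at an adjusted p of 0.05 in limma's test. In the other MAP kinase lists 4 genes did, Dusp22, Ccnd1, Mapk6 and Errfi1, and are given here for that difference between the ligands. Mapk6 and Errfi1 fall outside the rule for named genes and were added after their values were seen. Dusp22 was 0.92 higher on the log2 scale under NT than under ET-3 (95% interval 0.46 to 1.37, adjusted p = 0.0485, limma), with values of 29 and 21 in ET-3 and 46 and 49 in NT, both below DMSO. The other three were lower under NT than under ET-3, each with an adjusted p of 0.0379 (limma). For Ccnd1 the difference was -0.28 (-0.40 to -0.16), between 2409 and 2197 in ET-3 and 1930 and 1854 in NT. Mapk6, which encodes the atypical MAP kinase ERK3, differed by -0.24 (-0.33 to -0.15), between 1967 and 1942 in ET-3 and 1680 and 1624 in NT. Errfi1, a feedback inhibitor of the EGF receptor, differed by -0.31 (-0.44 to -0.19), between 1878 and 1767 in ET-3 and 1494 and 1443 in NT.

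All 4 kept their direction in the 16 alternatives, and all 4 lost the call whenever 1 library was left out, with adjusted p between 0.145 and 0.459 over the 6 such fits. Dusp22 passed in 5 of the 16 alternatives (adjusted p between 0.0207 and 0.712) and the other three in 6 each (0.00193 to 0.712). With the replicate block the adjusted p was 0.0748 for Dusp22 and 0.0691 for each of the others.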

How the results depend on the processing

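The counts of called members, 2 higher and 3 lower under each ligand, were the same in 16 alternatives, among them the replicate block, which gave 2 higher and 3 lower for both ligands and changed no other call of a member. Without the fold threshold, 5 members were lower under ET-3, and 4 were higher and 5 lower under NT. For single members, 140 of 144 values against DMSO kept direction and side of the threshold under ET-3 and 139 under NT. Dusp7 under ET-3 changed sign, to 0.06 with library totals and 0.02 with the upper quartile, and ranged from -0.12 to 0.06 with 1 library left out. Library totals moved the median of all genes to 0.08 under ET-3 and 0.10 under NT, and relative to these shifts Dusp7 under ET-3 stayed near 0. Between the ligands, leaving out 1 library gave ranges of -0.14 to 0.00 for Dusp1, -0.10 to 0.02 for Dusp6, 0.12 to 0.30 for Dusp8, -0.04 to 0.16 for Dusp10 and -0.08 to 0.00 for Dusp14, and 0 members passed in any alternative. The cause of these changes was not tested. Same-numbered libraries did not deviate together (correlations of -0.0142, -0.0806 and 0.0248 between groups). Because treated pairs scattered about as much as random sampling of reads would give, these correlations cannot decide whether same-numbered libraries were paired. With 2 libraries per group, calls between the ligands rest on few libraries, and p-values hold only for the spread within these pairs.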
